A study of Mus musculus with 2 samples.

Results

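Fabp3, Fabp4, Fabp5, Crabp1, Crabp2 and Apoe encode carriers of fatty acids, retinoids and lipoprotein lipids. These 6 genes were taken by name from the 22711 genes listed in both allelic expression files, and their total FPKM (fragment counts per transcript length and sequencing depth, here added up over both alleles) and B6 share (the part of that sum given to the B6 allele, in percent) were read in each line. The genes were chosen by their FPKM and B6 shares in these same libraries, so levels, differences and shares are descriptions and carry no test.

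The material was RNA-seq of cultured, immortal mouse embryonic fibroblasts that are hybrids of the strains C57BL/6N (B6) and PWK/PhJ (PWK). The PWK-Xi line, with the strain label C57BL/6N X PWK/PhJ, is by its title the one with the PWK X chromosome inactive. The B6-Xi line, with the strain label PWK/PhJ X C57BL/6N, is the one with the B6 X chromosome inactive. There was 1 library per line, made by oligo-dT capture and the Smart-seq2 protocol, which amplifies full-length cDNA. Both lines were grown in serum medium on gelatin, and the sources used here do not say whether either is a single clone. Of 12 fibroblast markers, 11 were above 0 in PWK-Xi and 10 in B6-Xi, and their FPKM summed to 676 in PWK-Xi and 339.6 in B6-Xi. Dcn alone had 456 FPKM in PWK-Xi and 79.1 FPKM in B6-Xi, so the gap between these sums rests on that gene. The other markers went in both directions. All 6 carrier genes are autosomal. Line, inactive X and direction of the cross, as far as the order in the strain labels gives it, differ together. Their parts in any difference below cannot be told apart. With no replicate the spread within a line is unknown, and so is the read depth behind an FPKM value.

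Fatty acid-binding proteins are small cytosolic proteins that hold a fatty acid inside a barrel of strands and carry it to membranes, enzymes or nuclear receptors. Fabp3 is the form of heart and skeletal muscle, Fabp4 that of adipocytes and macrophages, and Fabp5 that of epidermis, also found in many cultured cells. The cellular retinoic acid-binding proteins Crabp1 and Crabp2 share the same barrel fold. Crabp2 delivers retinoic acid to its nuclear receptors, and Crabp1 holds it in the cytosol. Apolipoprotein E, the product of Apoe, is secreted, coats lipoprotein particles and binds lipoprotein receptors on cells.

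The lines differed in which carriers were abundant. In PWK-Xi the order of total FPKM was Crabp1, Apoe, Fabp5, Fabp3, Fabp4 and Crabp2. In B6-Xi it was Fabp5, Fabp4, Crabp1, Apoe and Fabp3, with Crabp2 listed at 0. FPKM is scaled by length, but the sources used here do not say whether only fragments over a strain difference were counted. If so, a level also depends on how many such differences a gene has, and every order or ratio of levels between genes carries that limit. Which neighbours in the order differ beyond replicate spread is unknown. Summed over the 6 genes, the carriers had 1941 FPKM in PWK-Xi and 797 FPKM in B6-Xi, or 0.757% and 0.279% of all FPKM in these lines. In these bulk samples, fewer cells with a transcript and less of it per cell cannot be told apart.

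Fabp3, Crabp1 and Apoe, the carriers far higher in PWK-Xi, were also the ones with a matched promoter entry. Their reference sequence just before the annotated start is shown because of that entry, not because of their levels. RefSeq promoter entries of the GRCm38.p6 assembly were matched for these 3 of the 6 genes, and the 250 bases before the start are printed 5′ to 3′ with each CpG in capitals. The lines were processed on the mm9 build, so these coordinates belong to the sequences and not to the files. They are reference (C57BL/6J) letters, and the PWK letters were not used here. For Apoe, which has 3 annotated starts, the most upstream one was taken. The windows are chr4:130308488-130308737 on the plus strand for Fabp3, chr9:54764498-54764747 on the plus strand for Crabp1 and chr7:19699189-19699438 on the minus strand for Apoe.
Fabp3: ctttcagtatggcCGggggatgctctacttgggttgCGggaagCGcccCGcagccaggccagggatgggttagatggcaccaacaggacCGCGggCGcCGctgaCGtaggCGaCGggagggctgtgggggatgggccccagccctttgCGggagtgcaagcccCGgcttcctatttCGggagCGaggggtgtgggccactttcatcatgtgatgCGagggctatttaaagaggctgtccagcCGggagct
Crabp1: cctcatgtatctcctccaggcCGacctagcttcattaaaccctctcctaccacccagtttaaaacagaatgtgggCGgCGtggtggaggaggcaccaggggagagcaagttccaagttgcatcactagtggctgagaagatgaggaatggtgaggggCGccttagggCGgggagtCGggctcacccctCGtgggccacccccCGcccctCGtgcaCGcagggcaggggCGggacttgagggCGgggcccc
Apoe: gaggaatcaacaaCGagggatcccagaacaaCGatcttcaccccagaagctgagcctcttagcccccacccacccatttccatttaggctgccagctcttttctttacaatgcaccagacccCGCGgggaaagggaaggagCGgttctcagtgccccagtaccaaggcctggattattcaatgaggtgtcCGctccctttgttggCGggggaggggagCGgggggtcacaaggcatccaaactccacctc

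These 3 windows differed in base composition. The Fabp3 window held 17 CpG at 64.8% G + C, the Crabp1 window 12 CpG at 63.6%, and the Apoe window 8 CpG at 57.2%. Over 32851 windows of the same length, the median was 6 CpG and 52.4% G + C, so all 3 lay above the median on both measures. The GC box GGGCGG, searched on both strands, matched 5 times before Crabp1, at 178, 86, 49, 25 and 12 bases before the start, and 1.93% of all windows hold at least 5. It did not match in the Fabp3 or Apoe window, and 32.7% of all windows hold it at least once. The letters TATAAA (in 12.4% of all windows), AGGTCA (14%), CACGTG (6.02%), CCAAT (33.8%) and TGANTCA (6.75%), also searched on both strands, matched in none of the 3 windows. A match or its lack is a description of these letters only.

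Fabp3 had 37.6 FPKM from the PWK allele and 36.0 FPKM from the B6 allele in PWK-Xi, against 1.11 FPKM from the PWK allele and 0 from the B6 allele in B6-Xi. It was thus close to balanced in the line where it was abundant and low in the other. The totals were 73.6 FPKM in PWK-Xi and 1.11 FPKM in B6-Xi, a ratio of 66.1 that rests on a very low value. Among genes above 0 in that line, Fabp3 ranked 506 in PWK-Xi and 7902 in B6-Xi. On the scale log2((PWK-Xi + 1)/(B6-Xi + 1)) its difference was 5.14, and 36 of the 5490 genes that reached 5 FPKM in PWK-Xi or B6-Xi lay further toward PWK-Xi. Of the 5241 such genes that were above 0 in each line, 1 lay further. The median of these 5241 genes was 0.19, and relative to it Fabp3 lay at 4.95.

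Crabp1 was the most abundant carrier of PWK-Xi and the 20th most abundant gene of that library. It had 799 FPKM from the PWK allele and 487 FPKM from the B6 allele in PWK-Xi, against 69.1 FPKM and 13.6 FPKM from these alleles in B6-Xi. The totals were 1286 FPKM and 82.7 FPKM, a ratio of 15.5, and the log2 difference was 3.94, or 3.75 relative to the median gene. Both alleles were higher in PWK-Xi, the PWK allele 11.6-fold and the B6 allele 35.9-fold. Even at its lower level in B6-Xi, Crabp1 ranked 419.

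Crabp2, its paralog, was low in both lines. It had 4.06 FPKM in PWK-Xi, with 2.42 FPKM from the B6 allele, and was listed at 0 in B6-Xi. A 0 is not rare at this level: of 3975 genes that had 1 to 5 FPKM in PWK-Xi, 11.9% had 0 in B6-Xi. Crabp2 stayed under the minimum of 5 FPKM used for the counts below.

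Apoe was the third gene far higher in PWK-Xi, and it came almost wholly from the PWK allele in both lines. It had 338 FPKM from the PWK allele and 2.28 FPKM from the B6 allele in PWK-Xi, against 11.8 FPKM and 0.786 FPKM from these alleles in B6-Xi. The totals were 339.9 FPKM and 12.6 FPKM, a ratio of 27.0, with a log2 difference of 4.65, or 4.46 relative to the median gene. Nearly all of the difference in FPKM was on the PWK allele, which was 28.7-fold higher in PWK-Xi, while the B6 allele was 2.91-fold higher. The B6 values are low, and in B6-Xi the PWK value was 15 times the B6 value. Such a whole-number ratio can come from few fragments, so the 2.91-fold change is uncertain. Apoe ranked 130 in PWK-Xi and 2242 in B6-Xi.

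Fabp5 went the other way. It had 112 FPKM from the PWK allele and 69.9 FPKM from the B6 allele in PWK-Xi, against 336 FPKM and 256 FPKM from these alleles in B6-Xi. The totals were 182 FPKM and 593 FPKM, so Fabp5 was 3.25-fold lower in PWK-Xi, with a log2 difference of -1.70, or -1.89 relative to the median gene. Both alleles were lower by a similar factor, the PWK allele 2.99-fold and the B6 allele 3.67-fold. Fabp5 was the most abundant carrier of B6-Xi, where it ranked 81, and still ranked 221 in PWK-Xi.

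Fabp4, the next measured gene on chromosome 3, was also lower in PWK-Xi but stayed just within 2-fold. It had 51.2 FPKM from the PWK allele and 3.69 FPKM from the B6 allele in PWK-Xi, against 97.03 FPKM and 11.3 FPKM from these alleles in B6-Xi. The totals were 54.9 FPKM and 108 FPKM, 1.97-fold lower in PWK-Xi. Its log2 difference was -0.97, which becomes -1.16 relative to the median gene and then lies past 2-fold. The make-up of the fatty acid-binding group differed between the lines. Fabp3 made 23.7% of the summed FPKM of the group in PWK-Xi and 0.159% in B6-Xi, while Fabp5 made 58.6% in PWK-Xi and 84.4% in B6-Xi.

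**Figure D1:**
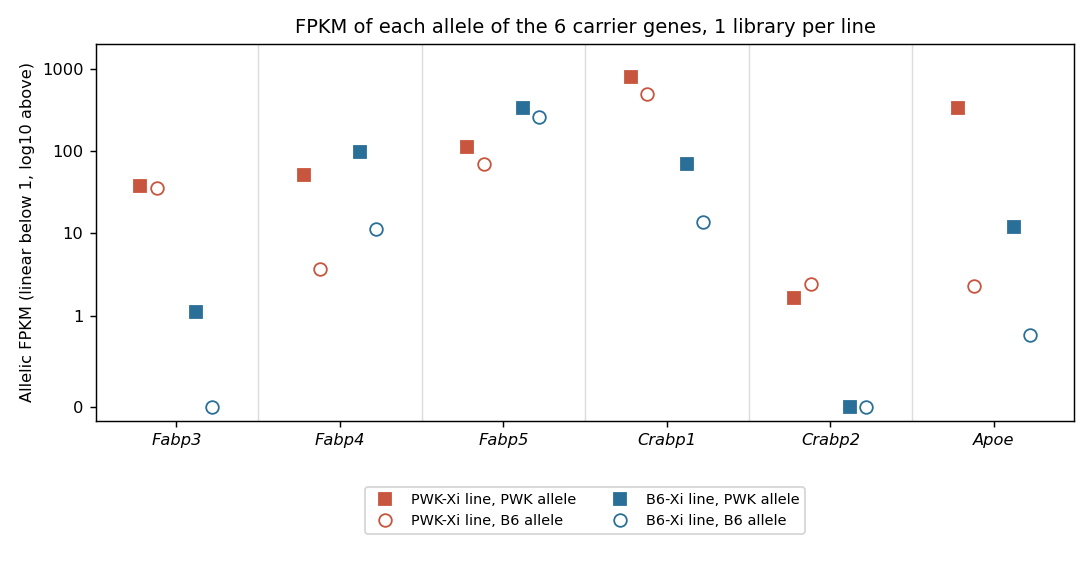
FPKM of the PWK allele (filled squares) and the B6 allele (open circles) of each carrier gene in the PWK-Xi line (red) and the B6-Xi line (blue), 1 library per line, on an axis that is linear below 1 and logarithmic above. Fabp3, Crabp1 and Apoe are higher in PWK-Xi, Fabp4 and Fabp5 are lower, and the PWK allele of Apoe is at 338 FPKM in PWK-Xi against 11.8 FPKM in B6-Xi.

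Of the 6 carriers, 5 reached 5 FPKM in PWK-Xi or B6-Xi. By a bound of 2-fold on the log2 scale with 1 FPKM added, 3 of the 5 were higher in PWK-Xi and 1, Fabp5, was lower. The same minimum was met by 5490 genes, of which 17.8% were 2-fold or more higher in PWK-Xi and 5.83% were 2-fold or more lower. The 3 higher genes were all more than 8-fold higher, as were 3.73% of the 5490 genes, and 0.572% of the 5241 of them that were above 0 in both lines. Since the members were chosen with these differences known, nothing is read from these counts.

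**Figure D2:**
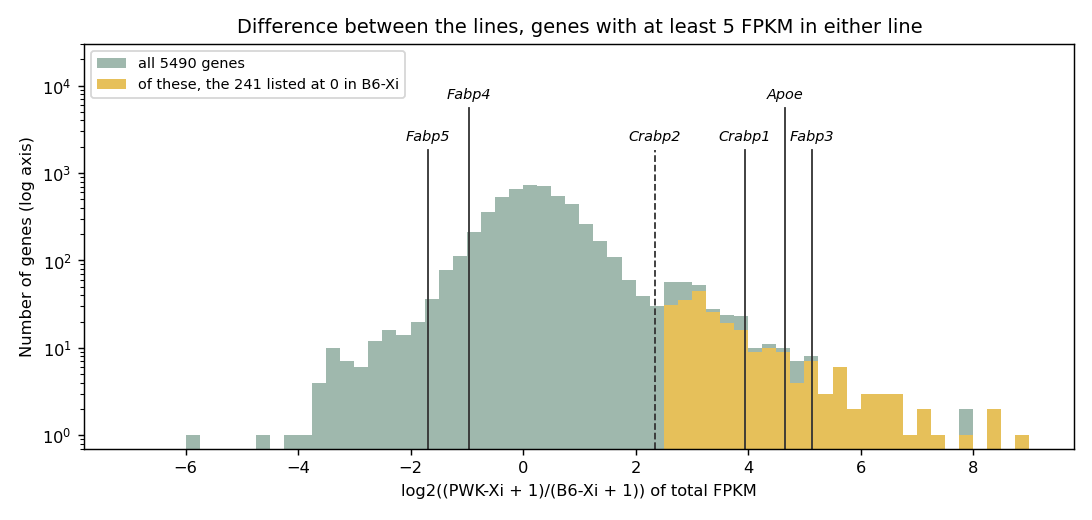
Number of genes (log axis) by the log2 difference of total FPKM, PWK-Xi over B6-Xi with 1 FPKM added, for the 5490 genes that reached 5 FPKM in PWK-Xi or B6-Xi (green), of which 241 were listed at 0 in B6-Xi (yellow). Vertical lines mark the carriers, with a dashed line for Crabp2, which is under that minimum. Fabp3, Apoe and Crabp1 lie at 5.14, 4.65 and 3.94, among genes many of which were listed at 0 in B6-Xi.

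The B6 shares set Apoe and Fabp4 apart from the other carriers. Apoe had a B6 share of 0.672% in PWK-Xi and 6.25% in B6-Xi, and Fabp4 had 6.73% in PWK-Xi and 10.4% in B6-Xi. Both genes were therefore mostly PWK whichever X was inactive and whichever way the cross was written. Among the 3825 autosomal genes that reached 5 FPKM in each line, 0.732% had a B6 share of at most 20% in both lines, and the median B6 share was 52.4% in PWK-Xi and 50% in B6-Xi. Fabp5, on the same stretch of chromosome 3 as Fabp4, had 38.4% in PWK-Xi and 43.2% in B6-Xi.

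Crabp1 and Fabp3 had the widest gaps in B6 share between the lines among the carriers with a share in both. Crabp1 had a B6 share of 37.9% in PWK-Xi and 16.4% in B6-Xi, 21.5 points apart. Of the 4 carriers that reached 5 FPKM in each line it was the only one with shares at least 20 points apart, against 26.8% of the 3825 autosomal genes. This 1 of 4 is near the share over those genes, so nothing is read from it. Fabp3 had 48.9% in PWK-Xi and 0% in B6-Xi, but the B6-Xi value belongs to 1.11 FPKM and stays out of this count. Crabp2 had 59.7% in PWK-Xi and has no share in B6-Xi.

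To set each share beside its stretch of chromosome, each carrier was compared with the 20 nearest genes in gene order with at least 1 FPKM in both lines. Around Crabp1, on chromosome 9, the median B6 share of the 20 neighbours was 50.7% in PWK-Xi and 67.1% in B6-Xi. Crabp1 lay below all 20 genes past that minimum in both lines. In PWK-Xi, at 37.9%, it was 12.8 points below their median and close to the lowest neighbour, Cib2, at 38.9%. In B6-Xi Crabp1 was 50.7 points below their median. The flanking genes leaned to B6 in B6-Xi: Wdr61 had B6 shares of 50.3% in PWK-Xi and 61.5% in B6-Xi, and Ireb2 had 46.5% and 71.4%.

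Fabp4 and Fabp5 stood in a balanced stretch. The neighbours of Fabp4 had median B6 shares of 54.1% in PWK-Xi and 53.4% in B6-Xi. Those of Fabp5 had the same medians, being the same genes apart from Fabp4 and Fabp5 themselves. Fabp4 lay 47.4 points below its neighbours' median in PWK-Xi and 43.0 points below in B6-Xi, with 0 of 20 neighbours lower in PWK-Xi and 1, Bhlhe22, lower in B6-Xi. Impa1, the next measured gene beyond Fabp4, had 57.9% in both lines, and Zfp704, on the other side of Fabp5, had 53.3% in PWK-Xi and 60.4% in B6-Xi. Between Fabp5 and Fabp4 lie Pmp2 and Fabp9, and beyond Fabp4 lies Fabp12, all 3 genes of the same family, and each was listed at 0 in both lines.

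**Figure D3:**
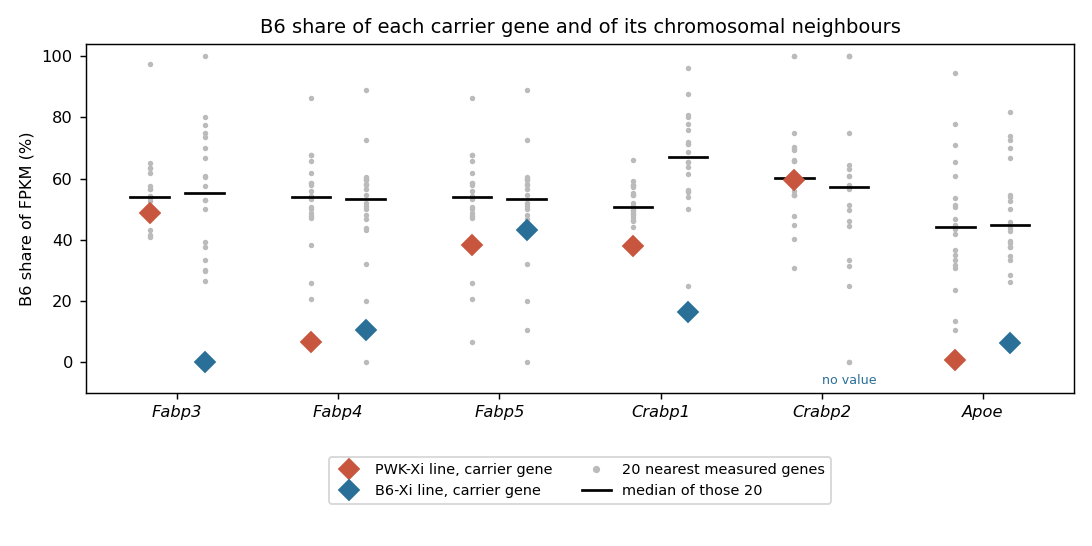
B6 share in percent of each carrier gene (diamonds) in the PWK-Xi line (red, left) and the B6-Xi line (blue, right), with the 20 nearest measured genes in gene order (grey points) and their median (black bar). Fabp4 and Apoe lie far under their neighbours' medians in both lines, at 6.73% and 0.672% in PWK-Xi and 10.4% and 6.25% in B6-Xi. Crabp2 has no value in B6-Xi.

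Around Apoe, on chromosome 7, the neighbours with at least 1 FPKM in both lines had median B6 shares of 44.2% in PWK-Xi and 44.7% in B6-Xi, and Apoe lay below all 20 in both. Of the 10 listed genes nearest to Apoe, 5 stayed out of this set because they were above 0 in PWK-Xi but listed at 0 in B6-Xi. All of these leaned to PWK in PWK-Xi, most of them strongly. Apoc1, a smaller apolipoprotein gene next to Apoe, had 2.94 FPKM in PWK-Xi with a B6 share of 0%. Tomm40, on the other side, encodes the pore of the mitochondrial outer membrane translocase and had 49.7 FPKM with a B6 share of 5.05%. Tomm40 and the further genes of this stretch were picked with their values known.

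Bcam, a cell adhesion gene beyond Tomm40, stood at 6.58 FPKM in PWK-Xi with a B6 share of 1.33%. The lean to PWK was not equally strong over the stretch, as Bcl3, further on, had a B6 share of 40% at 6.28 FPKM. Pvrl2, between Tomm40 and Bcam, had a B6 share of 44.7% of 24.9 FPKM in PWK-Xi and 26.3% of 2.16 FPKM in B6-Xi. Clptm1, the nearest measured gene on the Apoc1 side, had 41.9% of 11.7 FPKM in PWK-Xi and 52.6% of 9.98 FPKM in B6-Xi. Apoc4 and Apoc2, which lie between Apoc1 and Clptm1, were listed at 0 in both lines.

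**Figure D4:**
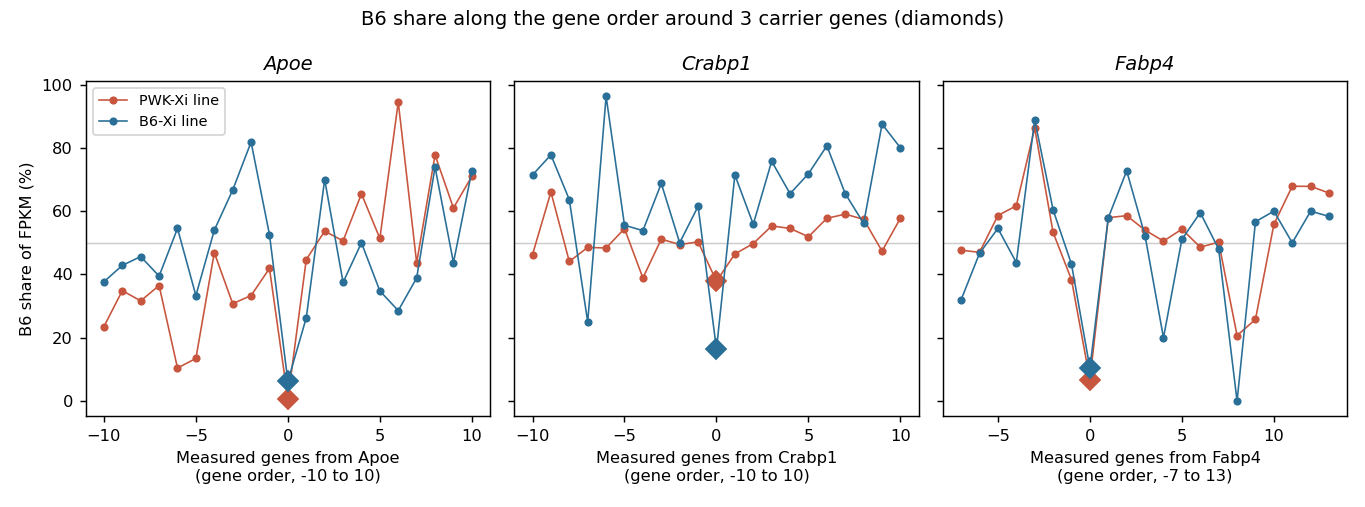
B6 share in percent (vertical axis) of the 20 nearest measured genes in gene order (horizontal axis, number of genes from the carrier) around Apoe, Crabp1 and Fabp4 in the PWK-Xi line (red) and the B6-Xi line (blue), with diamonds for the carrier. The neighbours of Crabp1 sit higher in B6-Xi than in PWK-Xi, with medians of 50.7% in PWK-Xi and 67.1% in B6-Xi, while Crabp1 itself is lower in B6-Xi.

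Fabp3 and Crabp2 stood among genes with median shares somewhat over 50%. The neighbours of Fabp3, on chromosome 4, had median B6 shares of 53.8% in PWK-Xi and 55.4% in B6-Xi. Its flanking genes Tinagl1 and Zcchc17 had 63.4% and 52.6% in PWK-Xi, against 60.8% and 53.0% in B6-Xi. The neighbours of Crabp2, on another part of chromosome 3, had medians of 60.1% in PWK-Xi and 57.1% in B6-Xi, and its flanking genes Isg20l2 and Gpatch4 had 65.9% and 56.0% in PWK-Xi and 46.2% and 60.7% in B6-Xi.

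The log2 differences in total FPKM of these 20 neighbours had a median of -0.13 around Fabp3, 0.23 around Fabp4, 0.42 around Crabp1 and 0.17 around Apoe. The minimum of 1 FPKM in both lines leaves out genes listed at 0 in a line, so these medians say nothing of such genes. Around Apoe it left out Tomm40, directly beside it, which had 49.7 FPKM in PWK-Xi and was listed at 0 in B6-Xi, and likewise Bcam, Bcl3 and Apoc1.

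Reads of near-identical copies could enter 2 of the genes. Of all stretches of 50 bases in the GENCODE transcript of Fabp3, 29.2% also occur in that of the pseudogene Fabp3-ps1, and 21.1% of those of Fabp5 occur in transcripts of 5 other annotated genes. The sources used here do not say how such reads were placed, so the levels and shares of Fabp3 and Fabp5 are uncertain to that extent. Fabp4, Crabp1, Crabp2 and Apoe shared no stretch of 50 bases with a transcript of another gene.

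The 5 cytosolic carriers are related in sequence but have no long stretch in common. Over their coding sequences, Crabp1 and Crabp2 were 70.8% identical, Fabp3 and Fabp4 66.5%, and Fabp4 and Fabp5 61.4%. Fabp4 and Fabp5 lie close together and had different B6 shares. The longest run shared by their coding sequences, at any position in each, was 12 bases. Over all 10 pairs of these genes the longest such run was 14 bases.

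Most markers of the cells best known for these carriers were low or listed at 0, the exception being Lpl. Of 11 adipocyte markers, 5 were above 0 in PWK-Xi and 3 in B6-Xi, and Adipoq, Plin1, Lep, Retn, Cfd and Ucp1 were listed at 0 in both. They summed to 44.0 FPKM in PWK-Xi and 43.6 FPKM in B6-Xi, beside 54.9 and 108 FPKM of Fabp4. Lpl alone gave 42.6 FPKM in PWK-Xi and 41.3 FPKM in B6-Xi, and the other markers summed to 1.41 and 2.28 FPKM. Pparg, the receptor that drives fat cell differentiation, had 0.655 FPKM in PWK-Xi and 0.872 FPKM in B6-Xi.

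Macrophages are a known source of Apoe. Of 12 macrophage markers, 5 were above 0 in PWK-Xi and 3 in B6-Xi, and 7 were listed at 0 in both, among them Tyrobp, Aif1 and Lyz2. They summed to 7.41 FPKM in PWK-Xi and 3.27 FPKM in B6-Xi, beside 339.9 and 12.6 FPKM of Apoe. Of 5 muscle markers only Des was above 0, with 2.11 FPKM in PWK-Xi, beside 73.6 FPKM of Fabp3. Endothelial, epithelial and neural lists summed to at most 5.42 FPKM in PWK-Xi and 3.17 FPKM in B6-Xi. Vim, a filament gene of fibroblasts, was listed at 0 in both lines, so a 0 in these files can be a failed estimate.

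The fibroblast markers differed among themselves. Dcn, which encodes the matrix protein decorin, had 456 FPKM in PWK-Xi and 79.1 FPKM in B6-Xi, while Col1a2, a chain of type I collagen, had 69.2 FPKM in PWK-Xi and 134 FPKM in B6-Xi. Whether the fibroblasts of the lines are of one kind was not tested.

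Most other members of the 3 carrier families were low or listed at 0. Of the 7 other fatty acid-binding protein genes, Fabp7, the form of brain, had 4.50 FPKM in PWK-Xi with a B6 share of 91.7% and was listed at 0 in B6-Xi, and the other 6 were listed at 0 in both lines. Rbp4, the retinol carrier of plasma, had 1.20 FPKM in PWK-Xi and was listed at 0 in B6-Xi. Of 14 other apolipoprotein genes, 9 were listed at 0 in both lines and only Apoc1 reached 1 FPKM.

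The wider pathway, taken from lists based on textbook function, held 96 genes besides the carriers, of which 31 were listed at 0 in both lines and 25 reached 5 FPKM in PWK-Xi or B6-Xi. Of these 25, 7 were at least 2-fold higher in PWK-Xi, 0 were at least 2-fold lower and 18 lay within 2-fold. The shares over all genes were 17.8% higher and 5.83% lower. The median log2 difference of the 25 was 0.42, beside 0.23 over all 5490 genes. Of the 7 higher genes, 3 (Rdh11, Dgat1 and Acsl3) were listed at 0 in B6-Xi.

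Of the 6 genes of retinoid metabolism past the minimum, 4 were among those 7, against 17.8% higher over all 5490 genes. Of these 4, 2 (Rdh11 and Dgat1) were listed at 0 in B6-Xi, which can be a failed estimate. With so few genes, nothing is read from this count. Dhrs3, a retinaldehyde reductase gene that retinoic acid itself induces, had 59.2 FPKM in PWK-Xi and 4.81 FPKM in B6-Xi, a ratio of 12.3, with B6 shares of 37.0% and 47.1%. Rdh11, another retinaldehyde reductase gene, had 11.4 FPKM in PWK-Xi, and Dgat1, an acyltransferase gene for fats and retinyl esters, had 8.23 FPKM. Rdh10, picked with its value known, encodes an enzyme that turns retinol into retinaldehyde and had 5.90 FPKM in PWK-Xi and 1.84 FPKM in B6-Xi.

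The other retinoid enzymes past the minimum lay within 2-fold. Rdh13 had 6.83 FPKM in PWK-Xi and 4.82 FPKM in B6-Xi, and Retsat, a retinol saturase gene, had 6.37 FPKM and 7.26 FPKM. Aldh1a1 and Aldh1a2, also picked with values known, encode enzymes that make retinoic acid and had 0.218 and 0.0187 FPKM in PWK-Xi and were listed at 0 in B6-Xi, and Aldh1a3 was listed at 0 in both. Of the receptors, Rarg for retinoic acid had 6.27 FPKM in PWK-Xi and 8.33 FPKM in B6-Xi, and Nr1h2 for oxysterols had 9.81 FPKM and 11.4 FPKM. Their partners Rxra and Rxrb were under the minimum, with 3.38 and 3.14 FPKM in PWK-Xi and 1.17 and 3.13 FPKM in B6-Xi. Rara and Rarb, also receptors for retinoic acid and picked with their values known, were under the minimum too. Both were higher in PWK-Xi, with 3.79 and 4.19 FPKM, against 0.546 FPKM and a listed 0 in B6-Xi.

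Of the genes of fatty acid uptake and activation, 7 of 9 lay within 2-fold, as did most genes of the libraries. Over all 5490 genes, 17.8% were 2-fold or more higher in PWK-Xi and 5.83% were 2-fold or more lower. Dbi, the acyl-CoA-binding protein, had 515 FPKM in PWK-Xi and 292 FPKM in B6-Xi, with B6 shares of 80.2% and 58.9%. Lpl, the lipase that frees fatty acids from lipoproteins, had 42.6 FPKM in PWK-Xi and 41.3 FPKM in B6-Xi, with B6 shares of 43.1% and 43.0%. Got2, a mitochondrial aminotransferase also described as a fatty acid-binding protein of the plasma membrane, had 31.1 FPKM in PWK-Xi and 32.6 FPKM in B6-Xi, and Scp2, a sterol carrier gene, had 14.1 and 12.8 FPKM. The acyl-CoA synthetase gene Acsl3 had 6.67 FPKM in PWK-Xi, with a B6 share of 96.7%, and was listed at 0 in B6-Xi. The X-linked Acsl4, picked with its value known, had 13.6 FPKM in PWK-Xi and 5.65 FPKM in B6-Xi, and its B6 shares of 99.8% and 0% are on the side that the labels give for the active X.

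Of the genes for lipoprotein receptors and lipid efflux, 6 of 7 lay within 2-fold. Most of all 5490 genes did so too, with 17.8% of them 2-fold or more higher in PWK-Xi and 5.83% 2-fold or more lower. The difference of Apoe was 27.0-fold. Lrp1, which takes up Apoe-rich remnants, had 16.2 FPKM in PWK-Xi and 8.17 FPKM in B6-Xi. Lrpap1, a chaperone of these receptors, had 9.28 FPKM in PWK-Xi and 9.49 FPKM in B6-Xi. Npc2, which moves cholesterol out of lysosomes, had 49.0 FPKM in PWK-Xi and 36.7 FPKM in B6-Xi, and the lysosomal receptor gene Scarb2 had 15.4 and 7.95 FPKM.

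**Figure D5:**
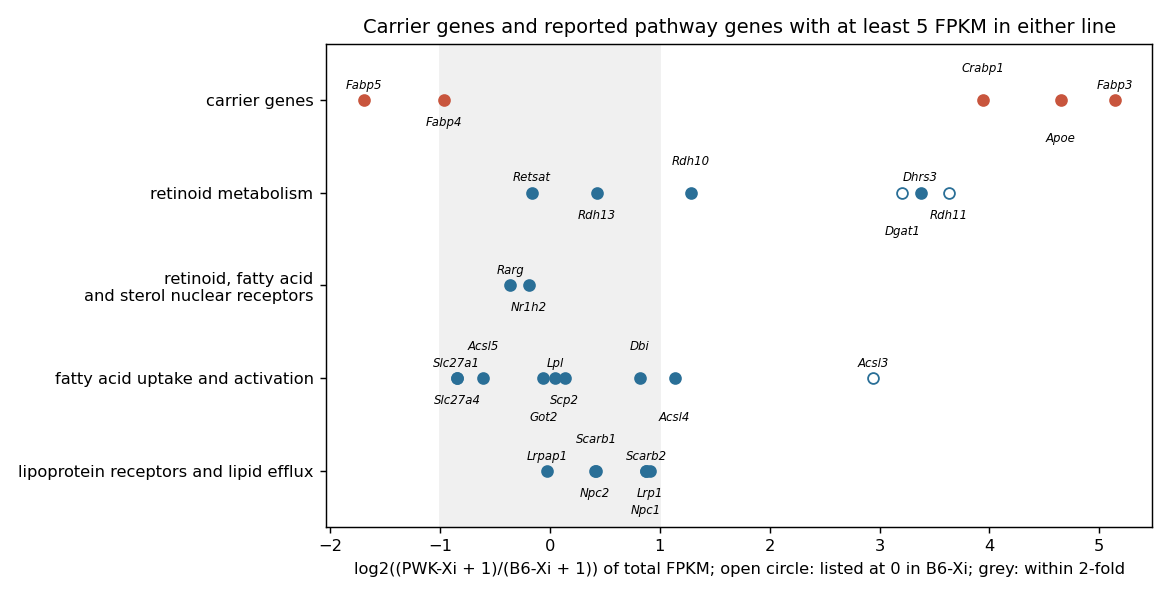
Log2 difference of total FPKM, PWK-Xi over B6-Xi with 1 FPKM added, of the 5 carriers with at least 5 FPKM in either line (red) and of the reported pathway genes past the same minimum (blue), by list, with open circles for genes listed at 0 in B6-Xi and grey for differences within 2-fold. Fabp3, Apoe and Crabp1 lie at 5.14, 4.65 and 3.94, and Dhrs3 lies nearest to them among pathway genes above 0 in both lines, at 3.37.

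The genes most like each carrier were sought by the Euclidean distance over 4 values, log2(allelic FPKM + 1) of both alleles in both lines, among 9901 genes above 0 in both lines. No gene lay within a distance of 1 of Fabp3, Fabp4, Crabp1 or Apoe. For Apoe the nearest were Impact, at a distance of 2.78, and Wfdc17, at 3.09, both with almost all FPKM from the PWK allele in both lines. For Crabp1 they were Spp1, the osteopontin gene, at 2.33, and Dcn, the decorin gene, at 3.16. For Fabp3 they were Cd24a at 1.64 and Tnc, the tenascin C gene, at 1.74.

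For Fabp4 the nearest genes were Polr2l at 1.53 and Lgals3bp at 1.54. Lgals3bp had 25.8 FPKM in PWK-Xi and 79.9 FPKM in B6-Xi, with B6 shares of 7.48% and 7.66%. Fabp5 had 3 genes within a distance of 1, led by Eif5a at 0.54 and Hsp90ab1 at 0.85. Crabp2 had 127 genes within a distance of 1, led by Msl3l2 and St7, at distances of 0.33 and 0.36. Crabp2 itself was listed at 0 in B6-Xi, so other genes listed at 0 there were not in the search and could not be found.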

How the data were processed

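The authors deposited FPKM values of 22711 genes for 1 library per line, in a B6 and a PWK column, per the file headers. Per the submitters' processing notes, the build was mm9 and the tools included HISAT2 2.2.0 and StringTie 2.1.1, with Trim Galore 0.6.4. The sources used here do not say how reads were given to an allele. FPKM are not counts, so depth is unknown and no interval was computed. The group of each library came from its title.

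Total FPKM was the sum of both alleles, and the B6 share had no pseudocount. Differences were log2((PWK-Xi + 1)/(B6-Xi + 1)), which understates the change of low genes, over genes that reached 5 FPKM in PWK-Xi or B6-Xi. Ratios named as such are of FPKM with no pseudocount. With 1 library per line no test was possible. The computations were tested on simulated data.

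The members and lists were chosen with earlier results of these data known. Named were the members, listed family genes that reached 1 FPKM in a line, the 4 most abundant genes of each other pathway list and those past 4-fold with at least 5 FPKM, the 2 genes most like each member, and the nearest measured gene on either side. Markers came from fixed cell type lists, and a gene outside this rule is marked in the text as picked with its value known. Some genes that the rule names are not reported here.

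Gene order came from RefSeq of GRCm38.p6, matched by symbol for 21416 genes and by synonym for 1152, with 143 unmatched. Promoters were RefSeq's and transcripts GENCODE's. Coding sequences were the longest open reading frames, aligned globally (match 1, mismatch -1, gap -4 and -0.5). Python 3.11.15, numpy 2.4.6, pandas 2.3.3, Biopython 1.88 and matplotlib 3.10.9 were used.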

Additional observations from a re-analysis of the deposited data

Results flagged for a closer look

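Of 12 named pathway genes that reached 5 FPKM in each line, 5 had their B6 share on opposite sides of 50% in the lines. So did 39.3% of the 3825 autosomal genes past that minimum, a share near that of the named genes. With 1 library per line the difference was not tested. The B6 share in PWK-Xi minus that in B6-Xi was 32.4 points for Retsat (52.4% and 20%), 31.5 points for Nr1h2 (59.3% and 27.8%), 12 points for Lrp1 (53.0% and 41.0%), -31.5 points for Scarb2 (31.0% and 62.5%) and 56.2 points for Npc2 (56.2% and 0%). In B6-Xi the shares of Retsat, Nr1h2 and Scarb2 are fractions of small whole numbers, which can come from few fragments. The 0 of the B6 allele of Npc2 in B6-Xi can be a failed estimate. These gaps are therefore uncertain.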

How the results depend on the processing

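No paired analysis was possible because the lines share only 1 replicate number, with 1 library each. Fabp3, Crabp1 and Apoe stayed at least 2-fold higher in PWK-Xi under other pseudocounts, scalings and a bound of 4-fold. The B6 allele alone left 2 of them, since that of Apoe differed by 0.88 on the log2 scale. The count of carriers at least 2-fold lower was 1, and it was 2 relative to the median gene, without the 100 most abundant genes in the scaling and with the B6 allele alone, Fabp4 being the added one, and 0 at 4-fold. Crabp1 was the 1 carrier with shares 20 points apart, and 0 were left relative to the autosomal medians (19.0 points) or with alleles scaled to equal sums (17.4 points). Relative to its 20 neighbours it was 37.9 points apart.

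The 7 pathway genes at least 2-fold higher became 4 with a pseudocount of 5 FPKM, 4 at 4-fold, 4 with genes above 0 in both lines only, 11 with the B6 allele alone, and 17 with a minimum of 1 FPKM or none. The 0 at least 2-fold lower became 1 with a pseudocount of 0.1 FPKM, 1 without the 100 most abundant genes in the scaling, 1 with either allele alone, and 2 relative to the median gene. The cause of these shifts was not tested. Of 42 values of single carriers under the 7 alternatives, 8 moved by over 1.5 times and 0 reversed. Low FPKM limits the value of Fabp3 in B6-Xi, where its difference ran between 3.69 and 5.93 over the alternatives, and all values of Crabp2.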

Other observations

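Some genes beside the carriers differed between the lines in ways of their own. They were chosen after their values were seen, and no difference was tested. Serinc2, the gene listed directly before Fabp3, had 0.337 FPKM in PWK-Xi and 14.3 FPKM in B6-Xi, opposite to the 73.6 and 1.11 FPKM of Fabp3, with B6 shares of 77.8% and 71.4%. Near Apoe, Zfp428 had 35.1 FPKM in PWK-Xi and 3.99 FPKM in B6-Xi, as Apoe higher in PWK-Xi, but its B6 share was 94.5% in PWK-Xi and 28.6% in B6-Xi. The B6-Xi share of Zfp428 belongs to a low value and can come from few fragments, so it is uncertain. Pvrl2, 2 genes from Apoe, had 24.9 FPKM in PWK-Xi and 2.16 FPKM in B6-Xi from both alleles. Near Fabp4, Cyp7b1, an oxysterol hydroxylase gene, had a B6 share of 25.8% in PWK-Xi and 56.7% in B6-Xi at 19.0 and 9.16 FPKM.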
